A study of Homo sapiens with 12 samples.

Results

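The H3K27me3 marks of 231K and 232P, 2 independent Tau-KO lines made from the same SH-SY5Y parent, were compared directly with each other. The comparison used 4 of the 6 peak lists of the series, with 2 biological replicates of each line, and the 2 lists of the Tau expressing (WT) parent served only as an outside readout. SH-SY5Y is a human neuroblastoma cell line, and in the Tau-KO lines the Tau gene MAPT was disrupted. No other genotype, agent or time point distinguished the groups, and all cells grew in the same medium. Whether each line is 1 clone is not given in the sources used here. Peaks of the 4 lists on the autosomes that overlapped by 1 bp or more were merged, which gave 222498 marks. A mark was called line-specific when both replicates of a line and neither of the other had a peak in it, and shared when all 4 lists had one.

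H3K27me3 is histone 3 trimethylated at lysine 27, a modification that Polycomb repressive complex 2 (PRC2) places on nucleosomes of silent genes. It forms wide domains over developmental regulators that a cell type does not use, among them HOX genes and the transcription factors of other lineages, and lower, patchier signal over gene-poor chromatin. In neuroblastoma cells, the transcription factors of the sympathetic lineage are active and are normally free of the mark.

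The lists had 237185 and 180174 peaks on the autosomes in 231K replicates 1 and 2. In 232P they had 136426 and 177579. The mean was 208679.5 ± 40313 (SD, n = 2) peaks in 231K and 157002.5 ± 29100 (SD, n = 2) in 232P, a ratio of 0.752 of 232P over 231K, with p = 0.333 in a two-sided exact permutation test, the lowest value possible with this design. Within replicate number 1 the ratio was 0.575, and within replicate number 2 it was 0.986.

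One library stood apart. The peaks of 232P replicate 1 covered 66.6 Mb, against 196 Mb in 232P replicate 2 and 180 and 264 Mb in 231K. Their median width was 341 bp, against 692 bp in the other 232P list and 457 and 724 bp in 231K. WT had 458 and 718 bp, so the lists numbered 1 had narrower peaks than those numbered 2 in all 3 groups. Of the peaks of 232P replicate 1, 7.45% reached a -log10 q-value of 5, against 15.8%, 14.8% and 25.9%. The relative depth recovered from the background of the lists was 71.9% of that of 231K replicate 1 for this list, 60.1% for 232P replicate 2 and 72.5% for 231K replicate 2. The peaks of the lists labelled 232P carry names that start with 231P, another Tau-KO line of the RNAseq experiment. The labels were followed here. No list had a peak near a start site of MAPT, so the peaks do not check the genotypes.

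The cell type was checked with fixed marker lists. Of 24 adrenergic neuroblastoma genes, none had a mark at a start site in all 4 lists. Of 33 genes of other lineages, 19 had it in all 4 lists, among them MYF5 of muscle, PDX1 of pancreas and CD3E of T cells. None of 18 housekeeping genes had a mark in any list. Over all 19111 protein-coding genes of the autosomes, 2102 (11.0%) had one in all 4 lists and 3530 in at least 1. A count of 0 in a list of 24 or 18 genes is therefore a weak check.

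The sequences under the summits of 5 marks are printed to show the kind of DNA that carried a mark in 231K only, in 232P but not 231K, or in all 4 lists. Each run is the 121 bp around the summit of the strongest peak in the start site window of the gene, read from hg38 on the plus strand, with every CG dinucleotide in capitals. The examples were picked with the values in view. The stretches of TTC9, at chr14:70640940-70641060 and 916 bp upstream of the annotated start, and of CRYBG2, at chr1:26359242-26359362 in an intron and 750 bp downstream of the nearest start, were overlapped by a peak in both 231K lists and in neither 232P nor WT.
TTC9: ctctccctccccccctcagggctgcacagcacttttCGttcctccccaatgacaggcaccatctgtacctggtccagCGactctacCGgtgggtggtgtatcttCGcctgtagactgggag
CRYBG2: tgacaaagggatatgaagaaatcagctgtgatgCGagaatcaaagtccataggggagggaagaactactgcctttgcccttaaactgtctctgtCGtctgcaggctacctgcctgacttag
That of KIAA1217, at chr10:23693956-23694076 and 730 bp upstream, was overlapped by a peak in both 232P lists and both WT lists and in neither 231K list.
KIAA1217: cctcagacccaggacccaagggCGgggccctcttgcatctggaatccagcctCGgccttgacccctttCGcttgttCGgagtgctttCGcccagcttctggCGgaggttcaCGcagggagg
That of USP17L24, the highest ranking gene with a mark in all 4 lists, at chr4:9324329-9324449 and 776 bp upstream, was overlapped in every list. So was that of CTAGE6, at chr7:143756492-143756612 in an exon and 1144 bp downstream of the nearest start, although the gene ranked highest among those with a TSS mark in 231K only. The 232P peaks ended outside of the 1 kb window there.
USP17L24: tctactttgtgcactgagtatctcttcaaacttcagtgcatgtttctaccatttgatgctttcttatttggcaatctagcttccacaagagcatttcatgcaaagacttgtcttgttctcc
CTAGE6: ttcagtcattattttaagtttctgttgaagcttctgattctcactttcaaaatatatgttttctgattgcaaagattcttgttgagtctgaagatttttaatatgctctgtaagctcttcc
The windows of KIAA1217 and TTC9 were rich in G and C, with 64.5% and 60.3%, and held 7 and 4 CG dinucleotides. That of CRYBG2 was at 47.9% and held 2, and those of USP17L24 and CTAGE6 were at 38.8% and 30.6% and held none. CTAGE6 and USP17L24 belong to families of near-identical copies, and a peak there cannot be assigned to 1 copy with certainty.

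Of the 222498 marks, 37819 (17.0%) were in all 4 lists, 16552 (7.44%) in both 231K lists only and 965 (0.434%) in both 232P lists only. The rule itself sets these classes, so the counts are descriptive. The most frequent pattern was a mark in 231K replicate 2 alone, with 40331 marks. A further 26254 marks were in both 231K lists and 232P replicate 2, and were missing only in 232P replicate 1. Without 232P replicate 1, 21473 marks were in both 231K lists only and 25491 in the remaining 232P list only, but there 1 list was enough for 232P while 231K still needed both. With 1 list on each side, the replicates numbered 2, the counts were 69994 for 231K only and 36977 for 232P only. With equal numbers of the strongest peaks the counts were 7603 and 1617, and at equal depth 10360 and 1391.

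**Figure D1:**
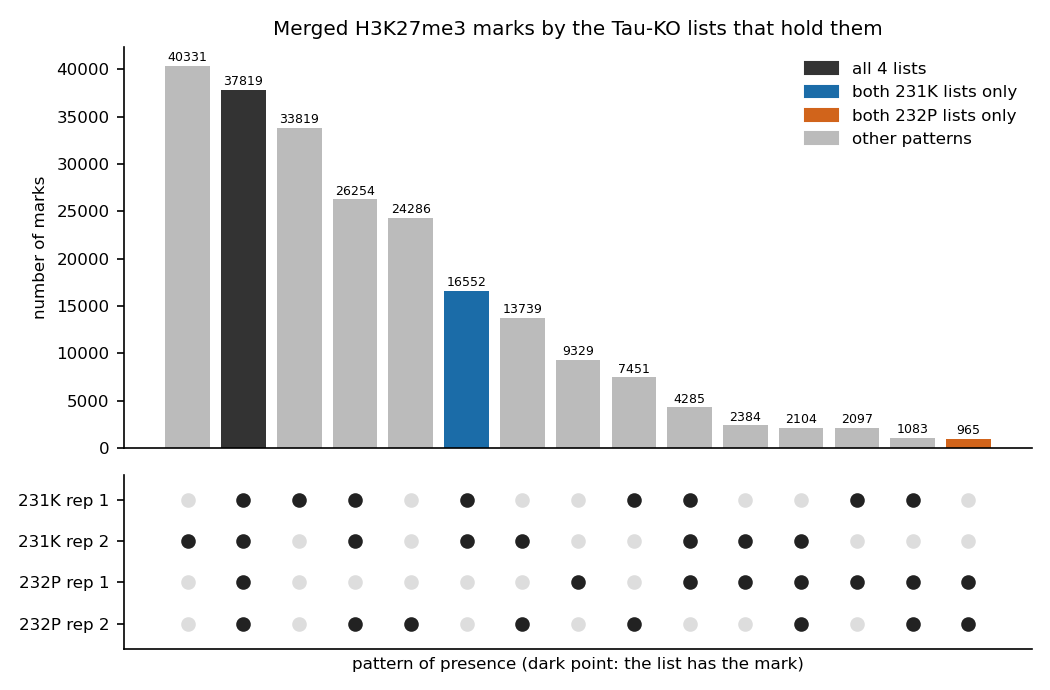
Number of merged autosomal marks (vertical axis) for each pattern of presence in the 4 Tau-KO lists, with a dark point for each list that has the mark. The bar for both 231K lists only stands at 16552, that for both 232P lists only is the lowest, at 965, and the bar for all 4 lists is at 37819.

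The 231K replicates shared marks about as often as the most similar pair of different lines, and the 232P replicates less often than 2 such pairs. The share of marks in both lists among the marks in either (the Jaccard index) was 0.452 for the 231K replicates and 0.318 for the 232P replicates. Across the lines it was 0.451 for the replicates numbered 2 and 0.426 for 231K replicate 1 with 232P replicate 2. Pairs with 232P replicate 1 had 0.297 and 0.314. Among the marks of the 4 lists, 84076 were in 231K but not 232P within replicate number 1 and 14782 the other way. Within replicate number 2 these counts were 63552 and 33785.

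Marks of only 1 line were narrower and weaker than shared marks, a contrast that depends in part on the rule and the merging. Their median width was 734 bp in 231K and 597 bp in 232P, against 3713 bp for shared marks and 624 bp over all marks, and the widest measured 5405 bp and 2884 bp. Width rose with the number of lists that held a mark, and marks in 1 list of each line, which are not line-specific, had medians of 484 to 856 bp, a range that includes both values. None of them reached 20 kb, whereas 1116 shared marks did. Together they covered 14.0 Mb and 0.646 Mb, while shared marks covered 208 Mb. The median fold enrichment was 3.28 and 3.35 in the 231K replicates for marks of 231K only, and 3.48 and 3.41 in the 232P replicates for marks of 232P only. Shared marks had 4.92 and 5.42 in 231K and 4.42 and 4.86 in 232P, and all marks together 3.63 and 3.75 in 231K and 3.98 and 3.62 in 232P. Each fold is that of the strongest peak of a list in the mark, and wider marks can hold more peaks. A mark that both lists of a line miss may also lie near the threshold, so the fold contrast is not a property of the lines. In both lists that held them, 94 marks of 231K only (0.568%) and none of the 965 of 232P only reached a -log10 q-value of 5. Of the shared marks, 4257 (11.3%) reached it in all 4 lists. Of all peaks, 14.8% and 25.9% reached it in the 231K lists, and 7.45% and 15.8% in the 232P lists.

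Marks of 1 line lay somewhat closer to a shared mark than other marks that were not shared, and outside of genes about as often as marks in general. The median distance to the nearest shared mark was 4.45 kb for 231K only and 4.15 kb for 232P only, against 5.96 kb over all marks that were not shared. Within 10 kb of a shared mark lay 67.0% and 69.3% of them, against 60.7% of all marks that were not shared. Outside of protein-coding genes were 71.5% and 71.3%, against 61.8% of shared marks and 69.9% of all marks. A start site within 1 kb was found for 375 marks of 231K only (2.27%), for 34 of 232P only (3.52%) and for 4167 shared marks (11.0%), against 3.92% of all marks.

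In windows of 401 bp at the summit, the median GC content was 39.7% for 231K only, 40.1% for 232P only and 42.6% for shared marks. Over all marks it was 39.4%, and the autosomes had 41.0%. CpG-rich windows, with a GC content over 50% and an observed over expected CpG ratio over 0.6, made up 0.133%, 0.311% and 0.344%, against 0.405% of all marks. At start sites the median GC content was 41.9% in the 375 marks of 231K only and 49.0% in the 34 marks of 232P only, with 44.9% in shared marks and 44.4% over all marks at start sites. CpG-rich windows there made up 1.07% for 231K only, 5.88% for 232P only, which is 2 of 34, and 0.960% for shared marks, against 3.62% over all.

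The WT lists were not used to set the classes. Of the marks in 231K only, 42.1% were in both WT lists, 38.6% in 1 and 19.3% in neither. Of those in 232P only, 32.1% were in both, 40.3% in 1 and 27.6% in neither. Over all 222498 marks the shares were 42.0%, 29.1% and 28.9%, so marks of 231K only were found in both WT lists about as often as marks in general. Shared marks were in both WT lists in 96.0% of cases. A mark at the start site in both WT lists was present for 71 of the 114 genes marked in 231K only, for 5 of the 17 marked in 232P only and for 2063 of the 2102 shared genes. That is 62.3%, 29.4% and 98.1%, against 79.2% of the 3530 genes with a mark at a start site in any Tau-KO list. No WT list marked 11, 6 and 1 of them, against 9.01% of those 3530 genes.

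**Figure D2:**
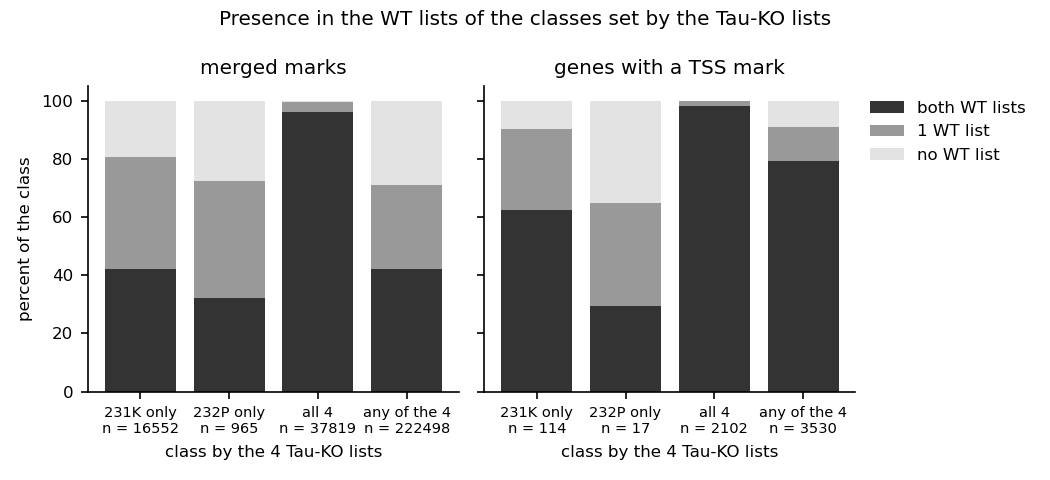
Share of each class (percent) found in both, 1 or neither of the 2 WT lists, for merged marks on the left and for genes with a TSS mark on the right, with n under each bar. The shared class is dark to 96.0% and 98.1%, and the bar for genes marked in 232P only has the smallest dark part, 5 of 17 genes.

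At genes, a TSS mark means a peak within 1 kb of any annotated start site of a protein-coding gene. Of 19111 such genes on the autosomes, 3530 had one in at least 1 Tau-KO list, 2102 (11.0%) in all 4 lists, 114 (0.597%) in 231K only and 17 (0.089%) in 232P only. The lists marked 2857, 3139, 2563 and 2781 genes, for 231K replicates 1 and 2 and 232P replicates 1 and 2, so the difference between the lines was smaller at genes than over all marks. Without 232P replicate 1, when 1 list was enough for 232P, the counts were 247 genes for 231K and 100 for 232P. A line-specific merged mark lay in the window of 67 of the 114 and 7 of the 17 genes. In the others, the peaks of both replicates fell at different places of the window or in a mark that the other line also held.

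The absence of a peak in the window often left a peak nearby in at least 1 list of the other line. The nearest peak in either list of the other line was at a median of 0.724 kb from the window for genes of 231K only, and within 5 kb for 92 of 114. For 232P only, the median was 0.357 kb and 16 of 17 genes had a peak within 5 kb. Both lists of the other line had one within 5 kb for 62 of 114 and 8 of 17 genes, so many of these counts rest on 1 library. Beyond 20 kb in both lists of the other line there were 13 genes marked in 231K only and SLC26A4 among those marked in 232P only.

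Among the 15 highest ranking genes marked in 231K only, CTAGE6 had a fold enrichment of 8.03 and 6.80 in the 231K replicates and 4.80 and 4.78 in WT. The peaks of 232P came within 0.185 and 0.012 kb of its window. DEFA1B, a defensin of neutrophils, had 5.50 and 7.50 in 231K and 5.56 and 4.92 in WT. ILDR1, a tight junction protein of the inner ear, had 5.33 and 5.79 in 231K and 3.97 and 3.36 in WT. All of them were thus marked in the parent as well, and 13 of these 15 genes were marked in both WT lists. The exceptions were TTC9 and ISX, an intestinal homeobox gene, which was in 1 WT list.

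FOXA1, a pioneer transcription factor of endoderm, had a fold enrichment of 4.24 and 5.00 in 231K and 3.18 and 3.36 in WT. The nearest peaks of 232P stopped 0.031 and 2.53 kb from its window. WHRN, a scaffold protein of hair cell stereocilia, had 4.42 and 5.42 in 231K and 3.39 and 6.13 in WT, with 232P peaks 0.673 and 0.282 kb away. The rest of the 15 were OR52W1, PRR20B, KRTAP13-2, KIR3DL2, PDILT, WFDC11, CLUL1 and ACTL9, of which OR52W1 is an olfactory receptor, KRTAP13-2 a hair keratin-associated protein and KIR3DL2 a receptor of natural killer cells. DEFA1B, PRR20B and KIR3DL2 also have close copies.

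TTC9, a protein with tetratricopeptide repeats, was different. Its fold enrichment was 4.51 and 5.02 in 231K, upstream of the gene, and it had no peak in its window in 232P or WT. The nearest peaks of 232P were 30.9 and 29.6 kb away, and in WT they were 0.238 and 24.8 kb away. NRXN2, a presynaptic adhesion protein, had 4.51 and 3.33 in 231K, and the nearest peaks of 232P and WT were all at 100 kb or more. CRYBG2 had 3.69 and 4.17, with the nearest peaks of the other 4 lists at 275 to 276 kb. At these 3 genes both 231K lists had a mark and neither 232P list had a peak within 29 kb.

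The other genes of 231K only with no 232P peak within 20 kb, apart from SELENOV, were marked in at least 1 WT list. CNGA3, a channel subunit of cone photoreceptors, had a fold enrichment of 3.69 and 3.90 in 231K and 3.35 and 5.46 in WT, with 232P peaks 86.0 and 167 kb away. DENND2D had 3.61 and 3.95 in 231K and 3.97 and 4.20 in WT, with 232P peaks 90.3 and 82.8 kb away. CDCP1, a transmembrane protein, had 3.25 and 4.19 in 231K and 4.37 and 4.20 in WT. Of the 13 such genes, CNGA3, DENND2D, CDCP1 and the complement gene CFB were in both WT lists and 4 were in neither. ARHGAP29, IRF5, FIGLA and PRAMEF25 were among those in 1 WT list, and TTC9, NRXN2, CRYBG2 and SELENOV in none. At CDCP1, ARHGAP29 and FIGLA the strongest peaks of the 231K replicates did not overlap each other.

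The 17 genes marked in 232P only had fold enrichments from 2.27 to 6.96. KIAA1217, which codes for a protein of the intervertebral disc, had 6.96 and 4.41 in the 232P replicates and 3.57 and 4.25 in WT, with 231K peaks 0.564 and 0.325 kb away. NRP1, a receptor for semaphorins and VEGF that guides axons and vessels, had 4.47 and 4.26 in 232P and 2.78 and 3.94 in WT. The nearest peak of 231K replicate 2 was 3.08 kb from its window, and that of replicate 1 was 2266 kb away. LOXL2, a lysyl oxidase that crosslinks collagen, had 4.47 and 3.53 in 232P and no WT peak nearer than 149.8 kb. In 231K, replicate 1 had its nearest peak at 47.5 kb and replicate 2 at 0.112 kb.

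ADRB3, an adrenergic receptor of fat cells, had a fold enrichment of 5.97 and 3.53 in 232P and none in WT, where the nearest peaks were 262 and 263 kb away. In 231K, replicate 1 had a peak at 0.721 kb and replicate 2 none nearer than 260.1 kb. The uncharacterised gene ENSG00000285880 shares its start region with ADRB3 and had the same values. DLX2, a homeobox gene of forebrain interneurons, had 5.97 and 2.27 in 232P, and 231K peaks lay 0.555 and 1.23 kb away. SLC26A4, an anion exchanger of the inner ear and thyroid, had 3.17 and 2.66 in 232P, with the nearest 231K peaks at 1026 and 1022 kb. SLC26A4 was in 1 WT list, at 3.94, and its strongest peaks in the 232P replicates lay at different places of the window. The others were TAF11L3, PRR5L, PRDM6, SSPN, CHMP2B, OR10Z1, SLC24A2, ATP12A, BSPRY and MPO, with MPO the myeloperoxidase of neutrophils.

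**Figure D3:**
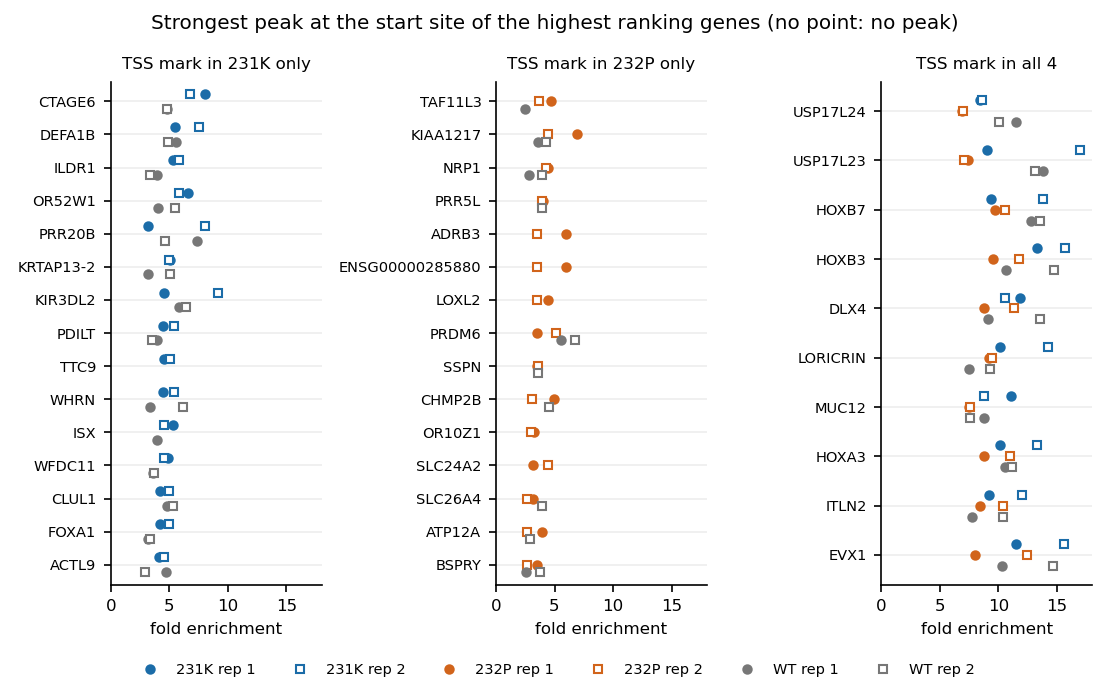
Fold enrichment (horizontal axis) of the strongest peak within 1 kb of a start site, for the 15 highest ranking genes marked in 231K only, the 15 of 232P only and the 10 shared ones, with 1 point per list and no point where the list has no peak. Grey WT points accompany nearly all 231K genes on the left apart from TTC9, are missing for ADRB3, ENSG00000285880, LOXL2, OR10Z1 and SLC24A2 in the middle, and shared genes on the right lie at 6.92 or more in the Tau-KO lists.

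The class of single genes depended on the processing. When a q-value of at most 0.05, equal numbers of peaks, equal depth and a window of 2.5 kb were each applied, 14 of the 114 genes marked in 231K only and 2 of the 17 marked in 232P only kept their class under all 4 settings. The former included TTC9, NRXN2, CRYBG2, ARHGAP29 and CNGA3, which also had no 232P peak within 20 kb. The latter were NRP1 and OR10Z1. At ARHGAP29 the strongest peaks of the 231K replicates did not overlap each other. The wider window removed most, leaving 38 and 4 genes in their class. These settings were combined after the data were seen, and equal depth rests on 1 random thinning, so single genes can move with the draw.

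Several gene families had a higher share of genes marked in all 4 lists than the 11.0% over all genes, while line-specific marks were rare, at 0.597% and 0.089% over all genes. None of the 39 HOX genes had a TSS mark in 1 line only, and 27 of them had it in all 4 lists (69.2%). PAX genes were shared in 8 of 9 cases and none had a TSS mark in 1 line only. Of 42 homeobox genes of the iroquois, LHX, NKX, DLX and related families, 19 were shared and DLX2 was marked in 232P only. Of 49 forkhead genes, 12 were shared and FOXA1 was marked in 231K only. None of 34 subunits of the Polycomb complexes was marked in all lists or in 1 line only.

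Of the 114 genes marked in 231K only, 26 (22.8%) were olfactory receptor, keratin or keratin-associated protein genes, which are families with many marked genes. Of 415 olfactory receptor genes, 18 were marked in 231K only (4.34%, against 0.597% of all genes), OR10Z1 in 232P only, and 194 in all 4 lists. Their number with a mark was 321 and 334 in the 231K replicates and 213 and 301 in the 232P replicates, with 346 and 337 in WT, so 232P replicate 1 was the lowest. Of 149 keratin and keratin-associated protein genes, 8 were marked in 231K only (5.37%), none in 232P only and 82 in all 4 lists. Here the lists marked 111, 120, 93 and 99 genes, with 116 and 111 in WT. Both 232P lists lay below both 231K and both WT lists in each family, as they did over all genes, where WT had 3099 and 3148. Among genes with a mark in any Tau-KO list, 5.11% of the olfactory receptor genes and 6.50% of the keratin genes were marked in 231K only, against 3.23% of all such genes. Within replicate number 2 the number of marked genes in 232P over 231K was 0.901 for olfactory receptors and 0.825 for keratins, against 0.886 over all genes. Within replicate number 1 it was 0.664 for olfactory receptors and 0.838 for keratins, against 0.897 over all genes. OR52W1 had fold enrichments of 6.56 and 5.84 in 231K, and KRT10, a keratin of the upper epidermis, had 4.10 and 4.87. The part that the low number of peaks in 232P replicate 1 has in these counts was not tested.

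In most other families too, genes marked in all 4 lists outnumbered those marked in 1 line only. Over all genes the shares were 11.0% in all 4 lists, 0.597% in 231K only and 0.089% in 232P only. Chemokine genes were shared in 24 of 44 cases, cytochrome P450 genes in 26 of 57, GABA and glycine receptor genes in 9 of 19 and collagen genes in 13 of 42. In 231K only, CYP2C19 and CYP46A1, 2 of 94 potassium channel genes, KCNK3 and KCNK13, WNT5B and SLC25A27 had a mark. In 232P only, SLC24A2 and SLC26A4 had one, 2 of 357 solute carrier genes. Counts of 1 or 2 genes are too few to set a family apart from that background. Clustered protocadherin, semaphorin and histone genes had no mark in all 4 lists and none in 1 line only, and 4 of 503 zinc finger genes were shared.

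Genes of senescence and of the mesenchymal state of neuroblastoma were examined for marks of both kinds. Of 59 senescence and secretory phenotype genes, 21 (35.6%) were marked in all 4 lists and none in 1 line only. Of 26 mesenchymal genes 6 (23.1%) were shared, among them PRRX1, RUNX2 and YAP1, and none was marked in 1 line only. Over all genes 11.0% were marked in all 4 lists, 0.597% in 231K only and 0.089% in 232P only. A count of 0 in 1 line only is thus near the general share in lists of this size. IGFBP3, a secreted binding protein of insulin-like growth factors that the study followed up, had a TSS mark in all 4 lists. Its fold enrichment was 3.29 and 4.64 in 231K and 4.75 and 5.55 in 232P, with the higher 231K value next to the lower 232P value. These values are not centred, and so few lists per line cannot show a difference between the lines here. None of the 37819 shared marks passed the adjustment (limma, lowest adjusted p = 0.897). The paper found no significant difference at its IGFBP3 marks between Tau-KO and Tau expressing cells. In WT it was 5.68 and 4.58. MAPT, EZH2, SUZ12, GPR37, ITGA3 and MRC2 had no TSS mark in any list.

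The genes that the study lists as upregulated in Tau-KO cells, from RNA of other samples, matched 665 autosomal protein-coding genes. TRIM21 and WHRN had a mark in 231K only (0.301%, against 0.597% of all genes), and KIAA1217, LOXL2 and NRP1 in 232P only (0.451%, against 0.089%). Counts of 2 and 3 genes are too few to set the list apart from all genes. KIAA1217 and NRP1 were also marked in both WT lists, and LOXL2 in neither. In all 4 lists 59 were marked, 8.87% against 11.0%. TRIM21, a ubiquitin ligase that binds antibodies in the cytosol, had 4.33 and 3.59 in 231K, with peaks at different places in the 2 replicates.

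**Figure D4:**
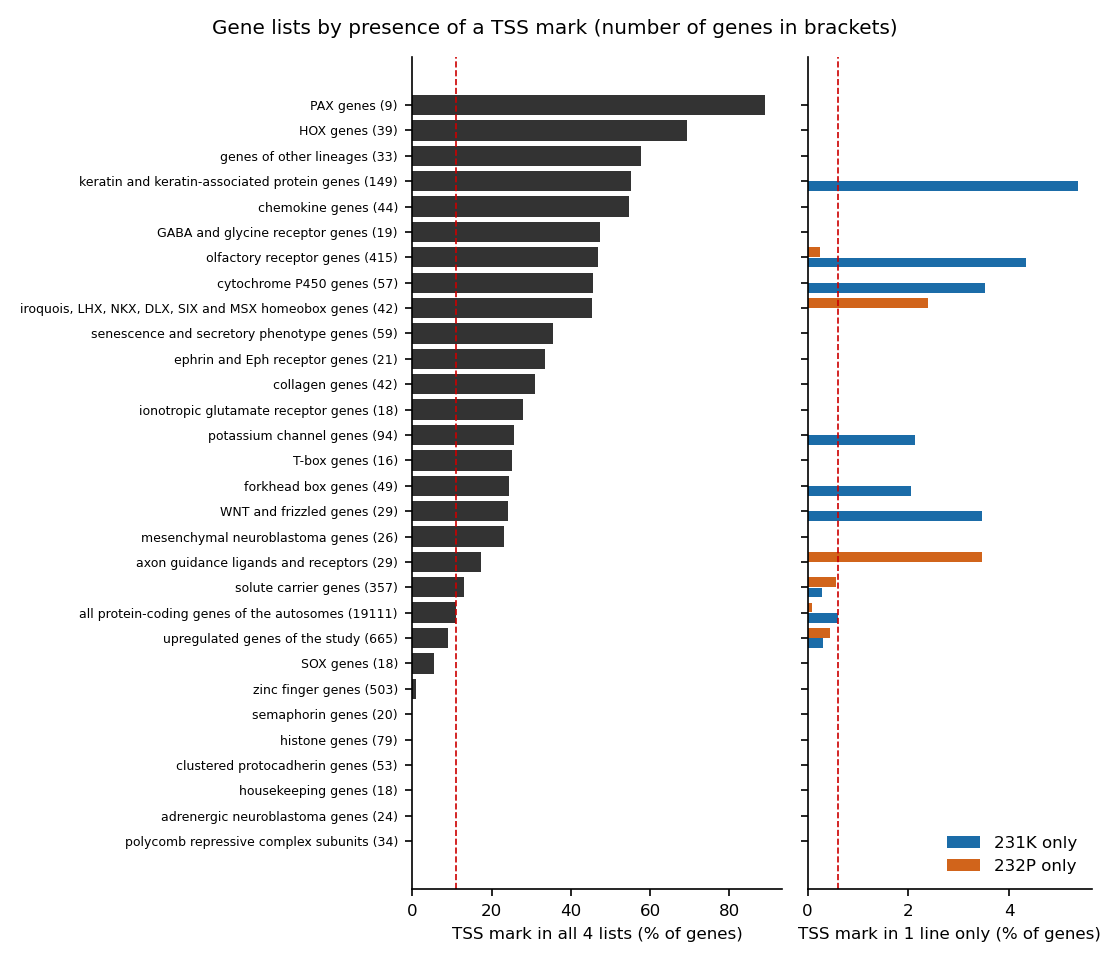
Percent of the genes of each list with a TSS mark in all 4 Tau-KO lists (left) and in 1 line only (right), with the number of genes in brackets and a dashed red line at the value over all protein-coding genes, on the right that for 231K only. PAX and HOX genes lead on the left with no bar on the right, and keratin and olfactory receptor genes have the longest bars for 231K only, 5.37% and 4.34%.

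The 10 highest ranking shared genes included HOXB3, HOXB7 and HOXA3 of the HOX clusters and EVX1 next to them. HOXB3, a regulator of the anterior body axis, had a fold enrichment of 13.3 and 15.7 in 231K and 9.56 and 11.8 in 232P. HOXB7 had 9.36 and 13.8 in 231K and 9.73 and 10.6 in 232P, HOXA3 10.1 and 13.3 against 8.75 and 11.0, and EVX1 11.5 and 15.6 against 8.04 and 12.4. The lines overlapped at HOXB7, HOXA3 and EVX1, and at HOXB3 both 231K values lay above both 232P values. The other genes among the first 10 were USP17L24, USP17L23, DLX4, LORICRIN, MUC12 and ITLN2. LORICRIN codes for a protein of the cornified envelope and MUC12 for a mucin. The widest shared mark, 154644 bp on chromosome 17 at SKAP1 next to the HOXB genes, was made of 38 and 3 peaks in 231K and 101 and 15 in 232P. ABCB5, CECR2, GJA5 and CRIM1 lay in the next widest.

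The strength of shared marks was compared by limma on the log2 fold enrichment of the strongest peak of each mark, centred on the median of each list. Of 37819 marks, none (0%) was stronger in 231K and none (0%) in 232P at a Benjamini-Hochberg adjusted p under 0.05, and the lowest adjusted p was 0.897. At an unadjusted p under 0.05 there were 1886 marks (4.99%), 877 higher in 231K and 1009 higher in 232P. The median size of the difference was 0.18 on the log2 scale, and its median standard error was 0.25. A difference of more than 1 on the log2 scale was seen at 33 marks. Leaving out 231K replicate 1 or 2 gave 2 and 1 marks stronger in 231K, and leaving out either 232P list gave none, with the lone sample assumed to vary like the others.

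The marks with the smallest p are given as values. The first lay on chromosome 5 from 17595148 to 17596502 at TAF11L9 and TAF11L10, with a fold enrichment of 7.07 and 13.3 in 231K and 3.06 and 3.44 in 232P. The log2 difference was 1.42 with a standard error of 0.27 (limma, adjusted p = 0.897). At the olfactory receptor OR2A7 on chromosome 7, from 144258493 to 144259270, the fold was 10.2 and 11.4 against 3.61 and 4.53. Both genes have near-identical copies nearby. At TSTD3 on chromosome 6 it was 6.77 and 10.0 against 3.65 and 2.40.

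Among the 10 marks with the smallest p that were higher in 232P, 4 lay at a protein-coding gene. IHH, a hedgehog ligand of cartilage and gut, lay in a mark with a fold enrichment of 5.47 and 8.31 in 232P and 3.86 and 3.33 in 231K, a log2 difference of -1.07 with a standard error of 0.26 (limma, adjusted p = 0.949). FOXP2, a transcription factor linked to speech, had 3.65 and 4.42 in 232P and 2.34 and 2.13 in 231K. ANKFN1 had 5.47 and 5.30 against 2.73 and 3.05, and CLEC4C, a lectin of dendritic cells, 5.47 and 6.18 against 2.78 and 3.75. A mark of 5534 bp on chromosome 3, with no protein-coding gene within 1 kb, had 5.97 and 6.81 against 3.17 and 3.25. In each of these marks the lines did not overlap, and none passed the adjustment.

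**Figure D5:**
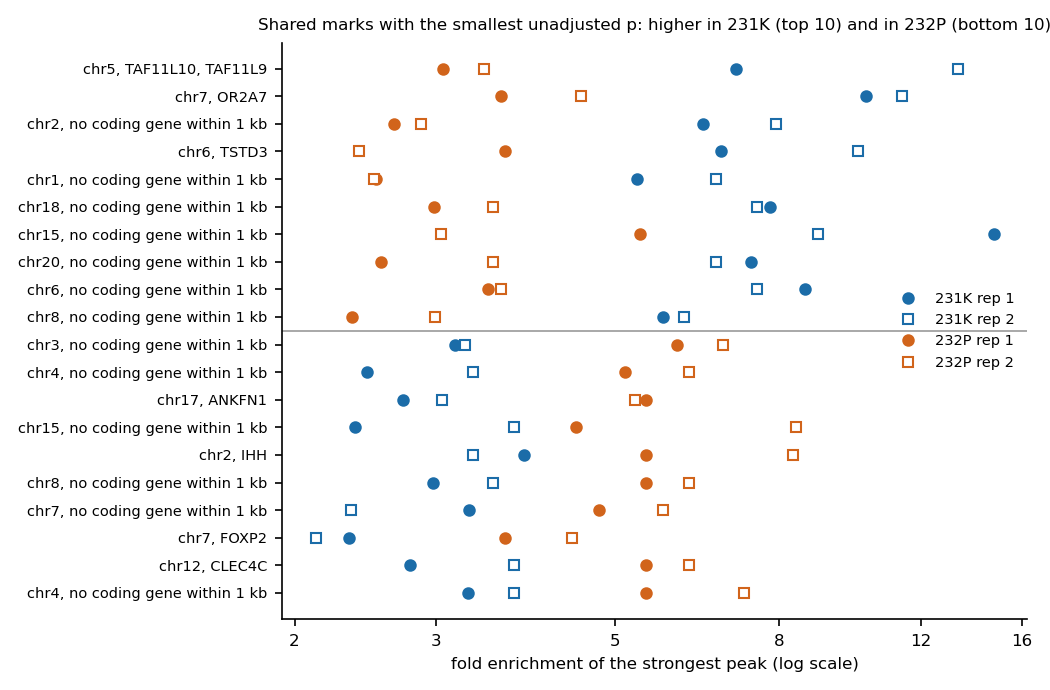
Fold enrichment (horizontal log axis) in the 4 Tau-KO lists of the 20 shared marks with the smallest unadjusted limma p, the 10 higher in 231K above the line and the 10 higher in 232P below it, named by chromosome and by protein-coding genes within 1 kb. The lines do not overlap in any of these marks, which were chosen by that difference, and no mark passed the adjustment, with a lowest adjusted p of 0.897.

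The marks of 1 line were spread over all autosomes. Marks of 231K only made up from 4.95% of the marks of chromosome 7 to 9.26% of those of chromosome 16. Of 2112 windows of 1 Mb, 1298 had at least 1 mark of 231K only and 573 at least 1 of 232P only. The densest window for 231K was on chromosome 10 from 6000001 to 7000000, with IL2RA, PFKFB3, PRKCQ and RBM17. Of its 459 marks, 59 were of 231K only, 2 of 232P only and 33 shared, against general shares of 7.44%, 0.434% and 17.0%. PRKCQ, a kinase of T cell receptor signalling, also had a TSS mark in 231K only. The lists had 326 and 333 peaks there in 231K and 100 and 209 in 232P. Windows at FLRT2, at NRN1 with LY86 and F13A1, at RBFOX1 and in a gene desert on chromosome 2 had 50 to 53 among 426 to 506 marks. For 232P, the densest window was on chromosome 14 at STXBP6, with 9 marks of 232P only and 30 of 231K only among 422 marks.

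The share of the peaks of a list that fell on a chromosome also differed. The mean share of 231K over that of 232P ranged from 0.689 on chromosome 19 and 0.729 on chromosome 7 to 1.23 on chromosome 4. On chromosome 7 were 6.59% and 5.22% of the peaks of 231K and 10.1% and 6.09% of those of 232P, so 232P replicate 1 was the highest and the difference between the 232P replicates was larger than that between the lines within replicate number 2. The local background on chromosome 7 was raised alike, at 1.60 and 1.48 times the floor of the list in 231K and 1.53 and 1.50 times in 232P.

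The widest marks of 231K only were in NAV3, a gene of neuron navigation, with 5405 bp, in CDS1, in ST8SIA1 and in 2 intergenic places, and all 5 were in both WT lists. That of NAV3 had a fold enrichment of 4.10 and 5.71 in 231K and 3.97 and 4.62 in WT. The widest mark of 232P only, 2884 bp on chromosome 6 from 11530802 to 11533685, had 2.61 and 3.99 in 232P and was in no WT list. The next 4 were intergenic and in both WT lists, and the strongest of them, on chromosome 16 from 1000267 to 1002414, had 8.45 and 4.86 in 232P and 5.16 and 5.88 in WT.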

How the data were processed

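Peak lists of H3K27me3 ChIP were used as the authors deposited them, 1 per sample and not pooled. According to the methods, the authors used trimmomatic for trimming, BWA for mapping to hg38 and MACS (version 2) for peak calling. The methods name the broadPeak setting, while the deposited lists have the narrowPeak columns. Control library and threshold are not given in the sources used here. The deposited fold enrichment is a ratio of summit reads to local background, deposited -log10 columns hold the p-value and q-value of each summit, the latter also rescaled as the deposited score. All of them depend on depth. Read counts are not in the lists, so no interval for counting error is given, and a missing peak means only that the threshold was not passed. Input samples were not analysed here.

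Summit height and local background were recovered from fold enrichment and p-value with the Poisson distribution (whole within 0.001 on the -log10 scale for 100% of peaks). Depth was taken as the background floor over the smallest peak width, 179 and 240 bp in 231K and 175 and 262 bp in 232P. Merging, counting and the exact permutation test used Python 3.11.15, pandas 2.3.3 and scipy 1.17.1. Shared marks were tested with limma 3.58.1 in R 4.3.3, with Benjamini-Hochberg adjustment over all of them. The study ran limma on read counts, for which fold enrichment stands in here. Genes were those of GENCODE release 44, whose hg38 sequence fits the lists. Steps were tested on simulated data.

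The marks, gene lists and tests were chosen with earlier results of these data known. Named genes were, for each line, the 15 with a TSS mark in that line only that ranked highest. The rank was by the lower of the 2 percentiles of the -log10 q-value, and the 10 shared genes were ranked alike. Also named were the widest marks, the 10 shared marks with the smallest p in each direction and the windows of 1 Mb with most line-specific marks. Further ones were list members with a TSS mark in 1 line only and genes the study names. Genes named for distance to the other line or for keeping their class were chosen after their values were seen. p-values measure the spread between biological duplicates only. Alternatives were thresholds on the q-value, equal numbers of peaks (136426), equal depth, merging within 1 kb, presence at 50% coverage, chromosome X, other gene windows, other scalings, the replicate block and leaving out each replicate. Each replicate number alone and the combination of settings for single genes were added after seeing the data. Results for a few genes of the lists are not reported here.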

Additional observations from a re-analysis of the deposited data

How the results depend on the processing

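Marks of 231K only and 232P only moved by over 1.5 times under 9 and 10 of 13 alternatives and the genes of each line under 8 of 13, while the number of genes marked in all 4 lists stayed within 1.5 times of 2102 except with strong peaks only (-log10 q-value of 5 or more). In what follows, counts are for 231K only, 232P only and all 4 lists. With strong peaks there were 5493, 24 and 4276 marks and 225, 3 and 572 genes. Equal numbers of the strongest peaks gave 7603 and 1617 marks of 1 line, and equal depth gave 10360 marks of 231K only. Merging within 1 kb gave 4320, 282 and 19139 marks, and the rule that 50% of a mark be covered gave 17224, 530 and 3060. Under that rule and with strong peaks, marks of 231K only outnumbered shared ones, unlike in the main counts of 16552 and 37819. Chromosome X raised the genes of 231K only to 184, and the whole gene as a window left 11 genes of 232P only. At a fixed threshold, a peak just under it counts as absent. At equal depth 232P replicate 1 still had the fewest peaks, 127386 against 160259 to 175552 in the other lists.

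Leaving out each replicate in turn gave 21473 to 71534, 2277 to 25491 and 42119 to 66032 marks, and 198 to 460, 33 to 146 and 2118 to 2448 genes. Leaving out a replicate also relaxes the rule for its line to 1 list. Marks of 232P only outnumbered those of 231K only without 232P replicate 1, but not with replicate number 2 alone, which also lacks it and has 1 list per line. The ratio of peak numbers was 0.654 to 0.871, and 0 to 2 shared marks were stronger in 231K. With replicate number 1 alone, added after seeing the data, there were 156578, 30226 and 70734 marks and 576 and 282 genes of 1 line. With replicate number 2 alone there were 69994, 36977 and 87939 marks and 506 and 148 genes. The ratio of peak numbers stayed below 1 under all of its 11 alternatives, with exact permutation p from 0.333 to 0.667 where one could be computed, and was lowest, 0.467, with strong peaks only.

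The replicate numbers were checked for pairing. The deviations of same-numbered samples correlated at 0.0414 over 37819 shared marks. Each list was centred on its median before, so an effect on whole lists cannot show there. The labels name no shared batch, and the main tests do not pair the samples. Peak width did split by number, with medians of 457, 341 and 458 bp in the replicates 1 of 231K, 232P and WT and 724, 692 and 718 bp in the replicates 2. The smallest width split likewise, with 179, 175 and 179 bp against 240, 262 and 244 bp. With the replicate block, the ratio of peak numbers was 0.753 (exact permutation p = 0.5, the smallest it allows), and limma called 0 marks in either direction, with 2101 marks at an unadjusted p under 0.05. The lowest limma adjusted p was 0.172 with the block, against 0.897 without it. Without the block, other scalings and strong marks only also gave 0.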

Other observations

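Chromosome X, which is not part of the comparison, differed more than the autosomes. It held 12.6% and 15.1% of all peaks in 231K replicates 1 and 2, 7.26% and 11.1% in 232P and 13.6% and 14.98% in WT, so both 232P lists were below the other 4. The lists marked the start site of 497 and 522 of its 859 protein-coding genes in 231K, 335 and 372 in 232P and 554 and 535 in WT. A mark in 231K only was found at 70 genes (8.15%, against 0.597% on the autosomes), one in 232P only at none, and all 4 lists marked 221. Of the 70, 45 were in both WT lists and 4 in neither. They included MAOA, which degrades monoamines, the synaptic vesicle gene SYN1, the coagulation factor gene F8, GATA1 of blood cells and TIMP1, an inhibitor of metalloproteinases, all chosen after their values were seen. Of 50951 marks on this chromosome, 9.72% were specific to 231K, 0.418% were specific to 232P and 6.13% were in all 4 lists. The mean local background there was 1.14 and 1.07 times the floor of the list in 231K, 1.13 and 1.11 times in 232P and 1.13 and 1.10 times in WT. What accounts for the low share in 232P was not tested.

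Each line had 2 samples, and 232P replicate 1 had narrower and fewer peaks, so line and library cannot be told apart where a count rests on it. A peak list gives presence at a threshold, not occupancy. The lists labelled 232P carry peak names of 231P.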
